A study of Mus musculus with 12 samples.

Results

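A set of 8 genes of the red cell membrane and of blood groups, Slc4a1, Sptb, Ank1, Rhd, Rhag, Ermap, Kel and Icam4, was followed in bone of newborn mice. They were chosen by name, and 7 of the 8 names matched a row among the 23358 genes of the deposited count table. Sptb was found under its older symbol Spnb1, at the position that RefSeq gives for Sptb, so that all 8 genes could be described. The names were proposed after the differences between genotypes in both strains had been seen, so those differences are given as a description. The number of the 8 past a threshold is no evidence for them.

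The samples were frontal bone of mice at postnatal day 3, with nasal bone and with the frontonasal and coronal sutures, and sequenced as bulk mRNA. There were 4 groups of 3 samples. C57BL/6 wild type mice were compared with C57BL/6 mice heterozygous for the C342Y change of the fibroblast growth factor receptor FGFR2, the change of the Crouzon mouse model, and BALB/c wild type mice with BALB/c mice carrying the same allele. Per the labels' protocol the tissue was digested with collagenase and trypsin before RNA extraction. Fgfr2 itself stood at 249 ± 35.9, 361 ± 20.6, 282 ± 11.4 and 300 ± 25.0 CPM (counts scaled to library size; SD, n = 3) in these groups as listed, a gene count that sums both alleles and does not check the genotype. The labels did not say which samples came from separate animals or litters, so the p-values measure only the spread between these samples, which may be technical.

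The red cell membrane is held up by a spectrin network on its inner face. Ankyrin ties beta-spectrin to the anion exchanger band 3, and band 3 gathers a large complex that also holds the Rh proteins and their partners. Several of these proteins carry blood group antigens on their outer face, and all are made while red cell precursors mature in marrow, liver or spleen.

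Sequences upstream of the genes were read from RefSeq promoter windows (GRCm38.p6), because the erythroid factor GATA1 binds motifs of the GATA type and KLF1 binds motifs of the CACCC type. Of the 8 genes, 6 had a window, and Slc4a1 and Ank1 had none. The 250 bases before the start were searched on both strands for GATAA, which reads TTATC on the other strand. They were likewise searched for CACCC, which reads GGGTG on the other strand. A match of one motif was counted without regard to the other. GATAA was found upstream of 5 of the 6 genes, against 22.6% of 32851 promoter windows, and CACCC upstream of 6 of 6, against 52.0%. Both were present for the same 5 genes, against 10.1% of all windows. Sptb was the gene with CACCC and without GATAA. The bases around the match (60, or 30 for Rhag and Icam4) are shown for those 5 genes, 5′ to 3′ on the strand of the gene. Each stretch lies inside its promoter window, upstream of the start site, which follows the first 250 bases of the window. GATAA or its reverse is in capitals, since this motif sets the 5 apart from Sptb. CACCC matches are not marked.
Rhd, chr4:134864467-134864526, plus strand: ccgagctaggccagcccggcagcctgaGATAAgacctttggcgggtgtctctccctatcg
Rhag, chr17:40811106-40811135, plus strand: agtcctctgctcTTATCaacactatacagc
Ermap, chr4:119190030-119190089, minus strand: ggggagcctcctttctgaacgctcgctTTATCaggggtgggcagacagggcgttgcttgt
Kel, chr6:41704326-41704385, minus strand: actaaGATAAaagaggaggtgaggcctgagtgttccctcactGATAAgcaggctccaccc
Icam4, chr9:21029377-21029406, plus strand: cagggtgccttcTTATCtcctgcggccagc
The marked match nearest to the start site ended 38 bases upstream of that site for Rhd, 27 for Rhag, 63 for Ermap, 14 for Kel and 39 for Icam4. Rhd and Kel held it in the GATAA orientation, and Rhag, Ermap and Icam4 in the TTATC orientation. These starts differ in part from the ends of the annotated genes: the match of Rhag lies inside the interval RefSeq gives for that gene as a whole, and the match of Icam4 inside the interval given in the count table. A match is a run of letters and not a measured binding site.

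In the C57BL/6 strain the 8 genes were lower in all 3 mutant samples than in all 3 wild type samples, by 2.51-fold for Ank1 to 4.33-fold for Rhag, where 21.9% of all genes had lower ranges that did not overlap. In BALB/c they were higher in mutants, by 1.32-fold for Icam4 to 1.81-fold for Rhd, and the groups were apart for 7 of the 8, against 9.93% of all genes. Between wild type samples of the strains the difference was 1.03-fold (Sptb) to 1.60-fold (Rhag), and mutant samples of the strains were 4.12-fold (Ank1) to 10.3-fold (Rhag) apart. Levels are given below as CPM, a gene's counts divided by the library's total on a common scale that also corrects for library composition (TMM), and differences as log2 fold changes ± standard error from edgeR's quasi-likelihood fit over all 12 samples. The libraries held 27181658 to 46521546 counts, every read pair having been counted as 2, and the 8 genes had 36 to 10502 counts in a library.

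**Figure D1:**
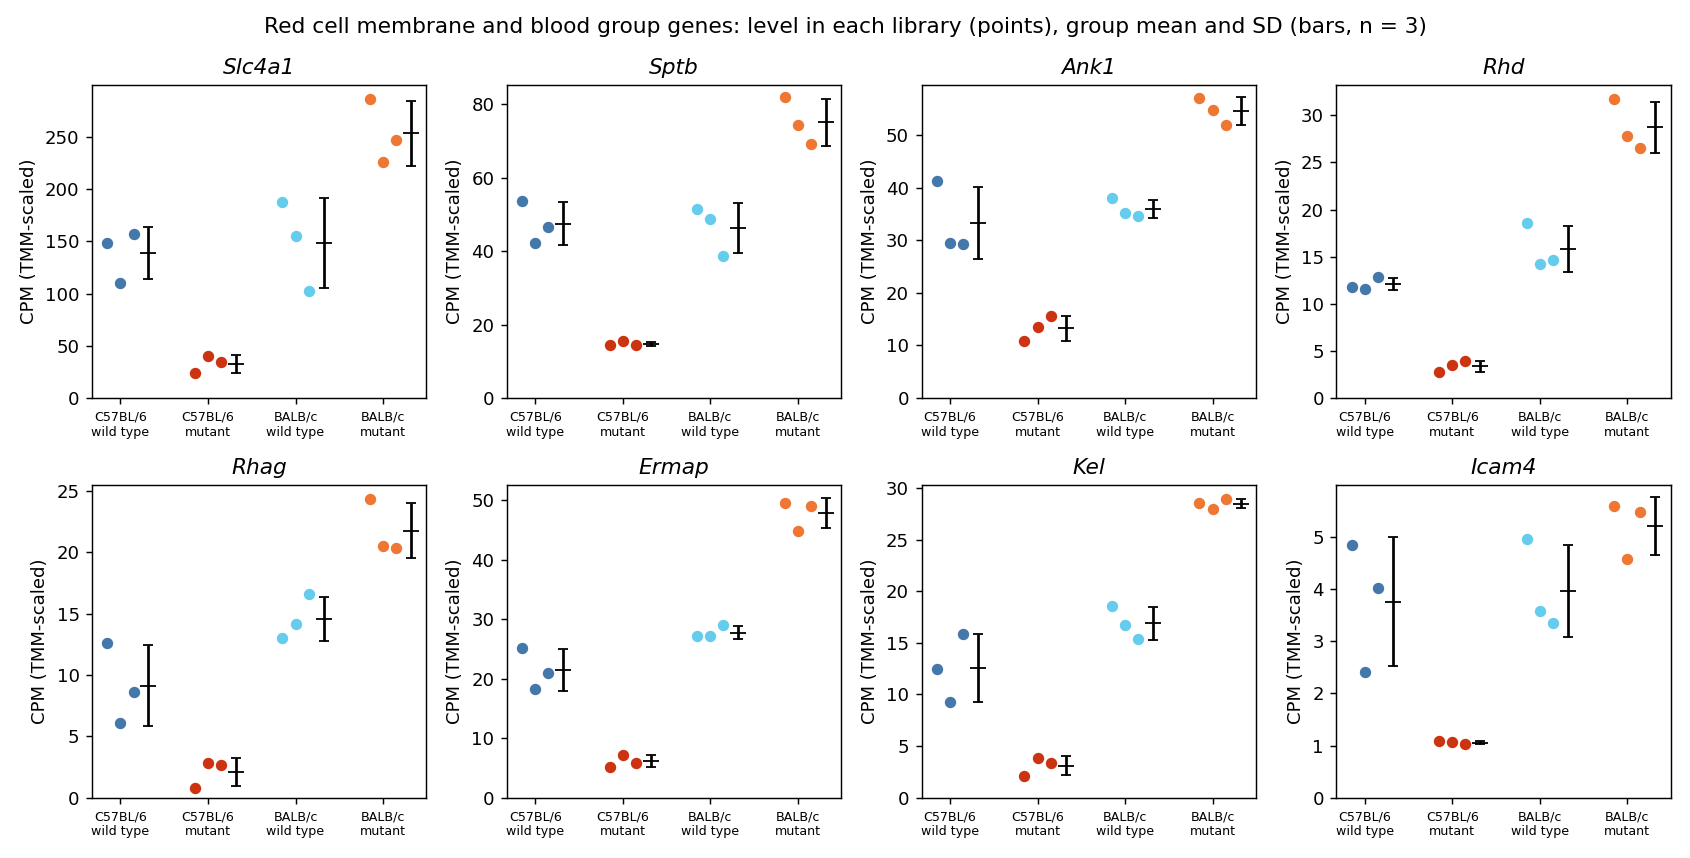
Level of each gene in each library. The vertical axis is TMM-scaled CPM from 0, points are the 3 libraries of a group, and the bar beside them is the mean with its SD. In all 8 panels the C57BL/6 mutant points are the lowest of the 12, and the means of the BALB/c mutants are the highest.

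Slc4a1 (chr11:102348820-102365281, build mm10), which encodes band 3, the chloride and bicarbonate exchanger that also carries the Diego blood group, was the most abundant of the 8. In C57BL/6 wild type replicates 1, 2 and 3 it stood at 148, 111 and 157 CPM, and in C57BL/6 mutant replicates 4, 5 and 6 at 23.6, 40.6 and 34.3 CPM. In BALB/c wild type replicates 13, 14 and 15 it stood at 188, 155 and 103 CPM, and in BALB/c mutant replicates 16, 17 and 18 at 287, 226 and 248 CPM. The C57BL/6 mutants were all below every other library and the BALB/c mutants all above, whereas the wild type groups of the strains overlapped. The mutant minus wild type difference was -2.08 ± 0.237 in C57BL/6 and 0.77 ± 0.226 in BALB/c (log2).

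The 2 genes of the skeleton beneath band 3 were likewise lowest in C57BL/6 mutants and highest in BALB/c mutants. Sptb (chr12:76580488-76710547), encoding erythroid beta-spectrin, stood at 53.7, 42.1 and 46.5 CPM in C57BL/6 wild type and at 14.5, 15.5 and 14.4 CPM in C57BL/6 mutants. In BALB/c its level was 51.5, 48.7 and 38.7 CPM in wild type and 81.8, 74.2 and 69.0 CPM in mutants. Within each strain the genotypes did not overlap, while the wild type groups of the strains did. Its log2 difference between genotypes was -1.68 ± 0.116 in C57BL/6 and 0.70 ± 0.111 in BALB/c.

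Ank1 (chr8:22974882-23150496) encodes the ankyrin that links spectrin to band 3. Its level was 41.2, 29.5 and 29.3 CPM in C57BL/6 wild type against 10.8, 13.5 and 15.5 CPM in the mutants, and 38.0, 35.3 and 34.7 CPM in BALB/c wild type against 57.1, 54.8 and 51.9 CPM in the mutants. The genotypes were apart in both strains and the wild type groups overlapped. The C57BL/6 difference, -1.33 ± 0.143 (log2), was the smallest of the 8 in size, and the BALB/c difference was 0.60 ± 0.138. The interval of Ank1 on the genome also holds the microRNA genes Mir486 and Mir3107, and that of Slc4a1 holds Mir684-1, whereas the other 6 overlapped no other row of the table.

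Rhd (chr4:134864536-134896172) encodes the Rh blood group protein of the mouse. It stood at 11.8, 11.6 and 12.9 CPM in C57BL/6 wild type and at 2.76, 3.54 and 3.88 CPM in C57BL/6 mutants. BALB/c wild type samples had 18.6, 14.2 and 14.7 CPM and BALB/c mutants 31.8, 27.8 and 26.6 CPM. All 4 groups were apart from each other, with BALB/c wild type above C57BL/6 wild type. The genotype difference was -1.84 ± 0.141 in C57BL/6 and 0.86 ± 0.13 in BALB/c (log2), the latter the largest of the 8.

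Rhag (chr17:40811149-40840754) encodes the Rh-associated glycoprotein, an ammonia and gas channel without which Rh proteins do not reach the surface. In C57BL/6 it stood at 12.6, 6.08 and 8.63 CPM in wild type and at 0.813, 2.86 and 2.69 CPM in mutants. In BALB/c it stood at 13, 14.1 and 16.6 CPM in wild type and at 24.3, 20.5 and 20.4 CPM in mutants. The 4 groups again did not overlap, but in C57BL/6 this gene had the widest spread of the 8 relative to its level, with C57BL/6 mutant replicate 4 far below replicates 5 and 6. Its differences, -2.11 ± 0.366 in C57BL/6 and 0.58 ± 0.33 in BALB/c (log2), had the largest standard errors of the 8.

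The remaining 3 genes encode antigen carriers on the cell surface. Ermap (chr4:119175457-119190011), a butyrophilin-like protein that carries the Scianna blood group, stood at 25.2, 18.3 and 21.0 CPM in C57BL/6 wild type and at 5.24, 7.23 and 5.87 CPM in C57BL/6 mutants. Its BALB/c values were 27.2, 27.2 and 29.0 CPM in wild type and 49.6, 44.9 and 49.0 CPM in mutants. All 4 groups were apart, and the log2 differences were -1.81 ± 0.128 in C57BL/6 and 0.78 ± 0.118 in BALB/c.

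Kel (chr6:41686330-41704325), the endopeptidase of the Kell blood group, stood at 12.5, 9.27 and 15.9 CPM in C57BL/6 wild type and at 2.08, 3.83 and 3.40 CPM in C57BL/6 mutants. BALB/c wild type samples had 18.6, 16.7 and 15.4 CPM and BALB/c mutants 28.5, 28 and 28.9 CPM. Genotypes were apart in both strains and the wild type groups overlapped at their edge. The differences were -2.02 ± 0.217 and 0.75 ± 0.198 (log2).

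Icam4 (chr9:21029373-21030531), the adhesion molecule of the Landsteiner-Wiener blood group, by which erythroblasts bind integrins of macrophages, had the lowest mean CPM of the 8 in each group. It stood at 4.83, 2.41 and 4.02 CPM in C57BL/6 wild type against 1.08, 1.07 and 1.02 CPM in the mutants. In BALB/c it stood at 4.96, 3.58 and 3.34 CPM in wild type against 5.58, 4.56 and 5.46 CPM in the mutants. It was the gene whose BALB/c genotypes overlapped, since wild type replicate 13 lay above mutant replicate 17. The differences were -1.82 ± 0.257 in C57BL/6 and 0.40 ± 0.242 in BALB/c (log2).

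Set against all 16190 genes tested, the 8 had a median log2 difference of -1.83 in C57BL/6, where the median of all genes was -0.004. All 8 passed an adjusted p of 0.05 as lower there, a call that 12.6% of all genes received, and of all calls 47.5% were higher, or 13.2% with libraries scaled by total counts. In BALB/c the median was 0.73, against 0.0 for all genes. Of the 8, 3 (Sptb, Rhd and Ermap) passed as higher, against 0.0926% of all genes. Since the names were proposed on these contrasts, nothing is read from these counts. The BALB/c call was lost for all 3 genes when any BALB/c library other than wild type replicate 14 was left out (0 of 8 passed edgeR's test in each of those 5 fits, with 6 to 7 of the 8 and 1331 to 1661 of 16500 to 16541 genes at an unadjusted p under 0.05), and DESeq2 on all samples passed 5 of 8 and 323 of 16190 genes.

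The difference of the genotype effects, BALB/c minus C57BL/6, was 1.93 ± 0.199 for Ank1 to 2.85 ± 0.327 for Slc4a1 (log2), with a median of 2.64 against 0.007 for all genes. An adjusted p under 0.05 with a positive interaction was found for all 8, as for 5.46% of all genes, and nothing is read from that count either. Of all interaction calls 54.4% were positive, or 90.5% with total counts. Genes that passed as lower in C57BL/6 mutants and also as higher in BALB/c mutants numbered 7, or 0.0432% of those tested, and Sptb, Rhd and Ermap were 3 of them. A negative sign in C57BL/6 with a positive sign in BALB/c, without a test, was found for 4321 genes (26.7%).

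In the authors' deposited table the 8 genes had log2 fold changes from -1.70 (Ermap) to -1.22 (Ank1) for C57BL/6 mutants against wild type. For BALB/c the authors' deposited table gave 0.30 (Icam4) to 0.79 (Rhd), with q-values of 2.83e-06 for Ermap, 0.0111 for Rhd and 0.0464 for Sptb. The other 5 genes had q-values of 0.136 (Ank1) to 0.836 (Icam4) in the authors' deposited table. The C57BL/6 values there were smaller in size than those fitted here for all 8 genes.

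**Figure D2:**
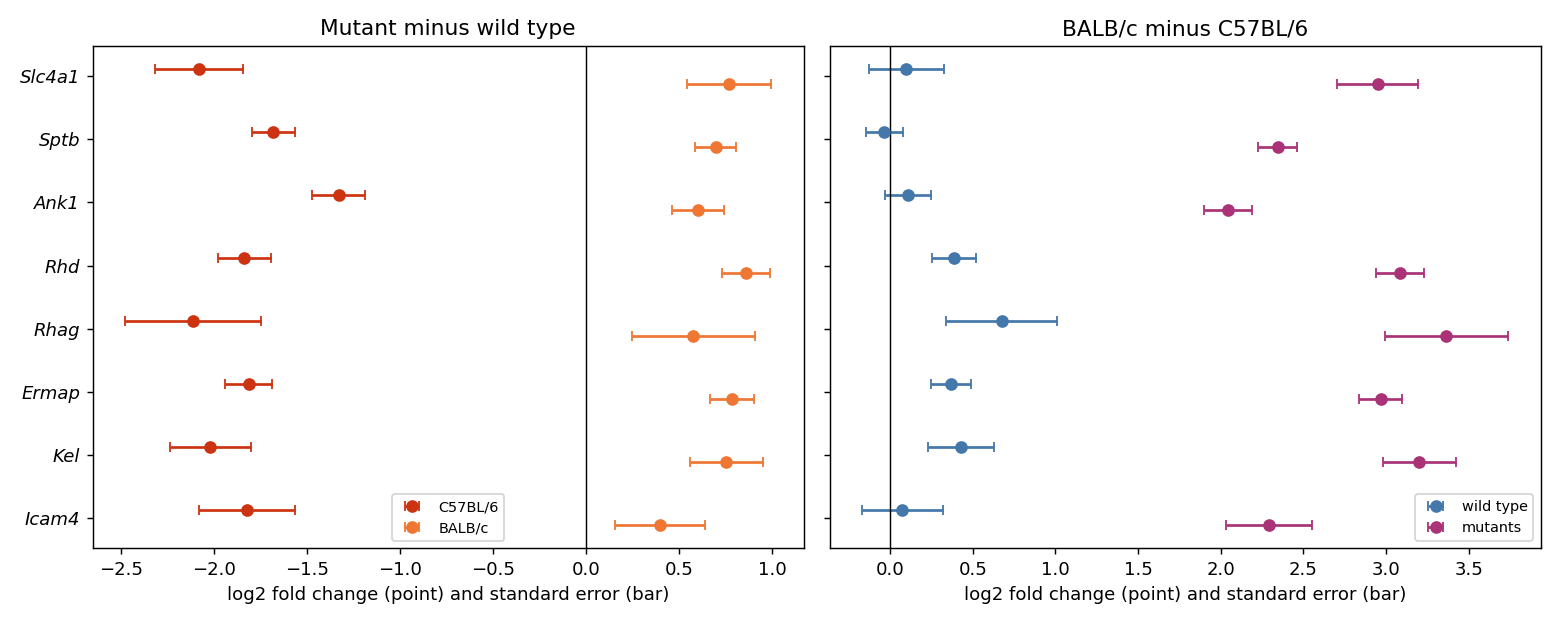
Log2 fold change of each gene (points) with its standard error (bars) from the fit to 12 samples. On the left, mutant minus wild type lies between -2.11 and -1.33 in C57BL/6 and between 0.40 and 0.86 in BALB/c. On the right, BALB/c minus C57BL/6 lies between -0.036 and 0.68 in wild type and between 2.04 and 3.37 in mutants.

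The strain comparison in wild type samples was not the one the genes were proposed on, although it uses the same wild type libraries. All C57BL/6 libraries carried one flow cell name and all BALB/c libraries another, so strain and flow cell cannot be told apart. Rhd was 0.39 ± 0.132 higher in BALB/c (log2; 1.31-fold, edgeR quasi-likelihood test, adjusted p = 0.0291, all 3 BALB/c samples above all 3 C57BL/6 samples). Ermap was 0.37 ± 0.12 higher (1.29-fold, adjusted p = 0.0232 by the same edgeR test), with ranges likewise apart. These 2 of 8 passed as higher, against 22.8% of all genes, so the share of the 8 was close to the background. Of all wild type strain calls 47.1% were higher in BALB/c, or 31.1% with total counts.

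Rhag had the largest strain difference in wild type, 0.68 ± 0.336 (log2), with ranges apart, and did not pass (edgeR adjusted p = 0.116). Ranges of 3 genes in all, Rhd, Rhag and Ermap, were higher without overlap, against 27.3% of all genes. Kel was at 0.43 ± 0.2 (edgeR adjusted p = 0.0963). Slc4a1, Sptb, Ank1 and Icam4 were between -0.036 and 0.11 with adjusted p-values of 0.541 to 0.826 in the edgeR test, and their standard errors were 0.111 to 0.244. The Rhd and Ermap calls were lost when libraries were scaled by total counts alone (edgeR adjusted p = 0.107 and 0.188) and in 3 of 6 fits that left out 1 library.

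In mutant samples all 8 genes were higher in BALB/c than in C57BL/6, by 2.04 ± 0.145 (Ank1) to 3.37 ± 0.374 (Rhag) on the log2 scale, with a median of 2.96. The ranges of all 8 were apart, as were those of 25.4% of all genes in that direction. This comparison is the sum of the strain difference in wild type and the interaction, and is therefore given as a description.

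Per kilobase of coding length, the scale on which levels of different genes can be compared, Slc4a1 led in every group. Its mean was 30.5 CPM per kilobase in C57BL/6 wild type, 7.21 in C57BL/6 mutants, 32.7 in BALB/c wild type and 55.7 in BALB/c mutants. Rhd was next in every group, at 7.99, 2.24, 10.5 and 19.0 CPM per kilobase in the same order. The other 6 lay between 3.87 (Ank1) and 4.98 (Kel) CPM per kilobase in C57BL/6 wild type, where their spreads overlapped. In BALB/c mutants they lay between 5.73 (Icam4) and 11.3 (Kel) CPM per kilobase, with Kel, Ermap and Rhag above Sptb, Ank1 and Icam4.

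The summed level of the 8 genes was 230 to 310 CPM in C57BL/6 wild type, 60.9 to 88.1 in C57BL/6 mutants, 255 to 360 in BALB/c wild type and 481 to 566 in BALB/c mutants. Slc4a1 made up 35.6% (BALB/c wild type replicate 15) to 49.4% (C57BL/6 wild type replicate 3) of the summed CPM per kilobase. The Slc4a1 share was 39.4%, 44.9% and 41.4% in C57BL/6 mutants, below every C57BL/6 wild type library (45.5% to 49.4%). The Ank1 share was 9.51%, 7.92% and 9.89% in C57BL/6 mutants, above all 9 other libraries (4.83% to 6.68%), Ank1 being the gene with the smallest difference between C57BL/6 genotypes. The Rhag share ran from 2.66% in C57BL/6 mutant replicate 4 to 11.3% in BALB/c wild type replicate 15, and the ratio of Slc4a1 to Rhag in CPM was 29.1 and 6.19 in those libraries. Those libraries were at the ends of their own groups, so the range of the Rhag share was set by single libraries and not by a group.

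**Figure D3:**
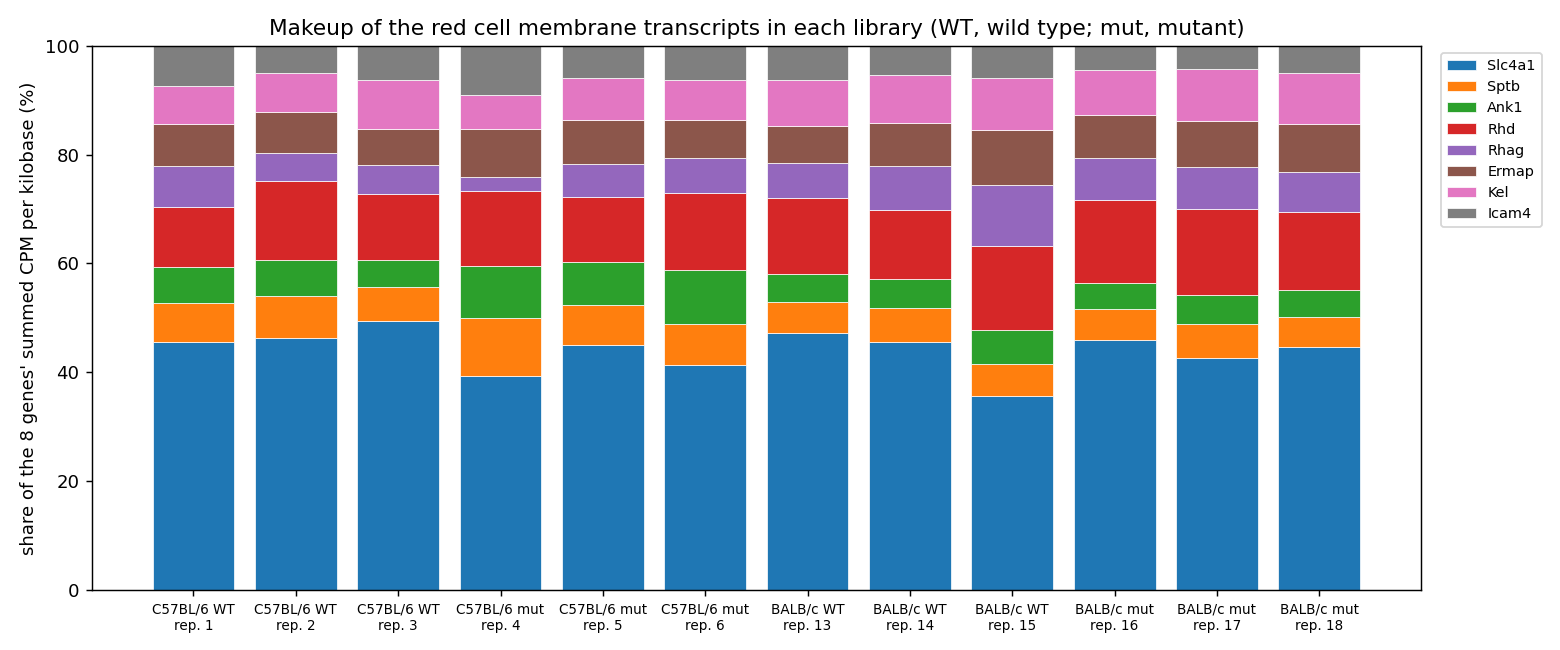
Share of each gene in the summed CPM per kilobase of the 8 genes, 1 bar per library, from 0 to 100%. Slc4a1 is the largest share in every library, and the Rhag share runs from 2.66% (C57BL/6 mutant replicate 4) to 11.3% (BALB/c wild type replicate 15).

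Over the 12 libraries, log2 levels of the 28 pairs of genes had Pearson correlations of 0.919 to 0.988 with a median of 0.972, which the 4 group means largely set. With group means subtracted the median was 0.546 and the range 0.276 to 0.82. Among 13870 other genes with a mean of at least 1 CPM, the 5 most like the mean of the 8 included Hemgn, a nuclear protein of blood precursors (r = 0.996), Tspan33 (0.993) and Fam55b (0.991). Hemgn stood at 19.6 ± 6.04, 4.11 ± 1.06, 24 ± 1.79 and 37.8 ± 2.70 CPM (SD, n = 3) in C57BL/6 wild type, C57BL/6 mutants, BALB/c wild type and BALB/c mutants. With group means subtracted the most alike were Mpo (0.968) and Elane (0.962), granule enzymes of early neutrophils, then Hemgn (0.959) and Pcmt1 (0.936). These correlations are descriptions over 12 libraries that share depth and composition within a library.

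Other genes of the red cell membrane and its skeleton, a list of 18, moved in both directions. In C57BL/6 mutants 9 fell (background 12.6% lower) and 3 rose (background 11.3% higher), with a median of -0.31 (log2) against -0.004 for all genes. The largest fall was in Tmod1, which caps actin filaments of the skeleton, by 2.70 ± 0.381 on the log2 scale (edgeR adjusted p = 0.000958). The 3 that rose were Cd59a (0.72), Piezo1 (0.37) and Mpp1 (0.25), named here after their values were seen. The summed level of the 18 genes, 1118 to 1197 CPM in C57BL/6 wild type and 1133 to 1183 CPM in C57BL/6 mutants, is carried by abundant genes that many other cells use.

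In BALB/c 0 of these 18 passed edgeR's test in either direction. At an unadjusted p under 0.05 there were 10, all higher, where 1901 of all 16190 genes reached that p and 1151 of them were higher, and DESeq2 called 5 and limma-voom 0. The median was 0.25 (log2), and 16 of 18 had a positive sign. The interaction test called 9 positive and 2 negative (background 5.46% and 4.58%). Between wild type samples of the strains 3 were higher and 4 lower in BALB/c (background 22.8% and 25.6%), the largest being Tmod1 (-1.30, adjusted p = 0.011 in edgeR's test), Add2 (-0.81) and Stom (-0.74).

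Other blood group carriers and enzymes, by their mouse orthologues, gave 23 tested genes of 25, Abo and Rhcg being too low to test. The list shares 4 genes with the one before it. In C57BL/6 mutants 8 fell and 2 rose (background 12.6% and 11.3%; median -0.084 on the log2 scale, against -0.004 for all genes), the largest falls being in Fut1, a fucosyltransferase that makes the H antigen, by 2.64 ± 0.805, and Slc14a1, the urea transporter of the Kidd blood group, by 2.16 ± 0.3 (edgeR adjusted p = 0.0342 for Fut1 and 0.000906 for Slc14a1). In BALB/c 0 of 23 passed edgeR's test, with 3 at an unadjusted p under 0.05 (1901 of all 16190), 1 called by DESeq2 and 0 by limma-voom. The interaction test called 5 of 23 positive (background 5.46%). Without C57BL/6 mutant replicate 4 it called 10 in either direction, where calls over all genes went from 1626 to 3129. In wild type samples 6 of the 23 were higher and 5 lower in BALB/c (background 22.8% and 25.6%). Aqp3 (-6.61) and Fut1 (-6.45) were far lower in BALB/c (log2), and both moved with markers of ciliated epithelium given below. The part of that epithelium in these values was not tested.

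Of 22 tested genes of an erythroid reference list (globins, heme synthesis, iron uptake and erythroid transcription factors), 14 fell and 0 rose in C57BL/6 mutants (background 12.6% and 11.3%), with a median of -0.88 (log2). The largest falls were in Klf1 by 2.51 ± 0.208, Gata1 by 2.29 ± 0.259 and Tspo2 by 1.82 (edgeR adjusted p = 8.26e-05 for Klf1 and 0.000338 for Gata1). In BALB/c 1 rose, the carbonic anhydrase Car2 (0.50, edgeR adjusted p = 0.0398), and 15 of 22 were higher at an unadjusted p under 0.05, as were 1151 of all 16190 genes. Without BALB/c mutant replicate 16 Car2 did not pass and the count called by edgeR was 0, and on all samples DESeq2 called 7 and limma-voom 2. The median there was 0.43. The interaction test called 16 of the 22 positive (background 5.46%). Between wild type samples 12 of 22 were higher and 2 lower in BALB/c (background 22.8% and 25.6%), with a median of 0.33 (log2) where the 8 membrane genes had 0.24. The summed level of the list was 743 to 916 CPM in C57BL/6 wild type and 1174 to 1520 CPM in BALB/c wild type. Hbb-bs alone had means of 277 and 771 CPM in these groups, so the gap between the sums lay mostly in this gene. The largest wild type strain differences were those of the globins Hbb-b1 (2.83 ± 0.969), Hba-a1 (1.67 ± 0.524) and Hbb-bs (1.48 ± 0.172), with edgeR adjusted p-values of 0.0302, 0.0202 and 5.60e-05. Levels of Hbb-b1 and Hba-a1 were very low, with means of 0.037 and 0.27 CPM in C57BL/6 wild type. In BALB/c wild type their means were 0.28 and 0.87 CPM, so these differences rest on few counts. Globin counts are uncertain, because 53.2% to 89.3% of the 50-base words of Hba-a1, Hba-a2, Hbb-bs and Hbb-bt also occur in a sister gene, against 0.23% or less for each of the 8 membrane genes.

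Measured against the mean log2 level of these 22 reference genes, the 8 membrane genes were lower in C57BL/6 mutants than in wild type, by -0.44 (Ank1) to -1.33 (Rhag). In BALB/c the same relative difference was -0.029 (Icam4) to 0.43 (Rhd). Between wild type strains it ran from -0.48 (Sptb) to 0.29 (Rhag), and between mutants from 0.30 (Ank1) to 1.76 (Rhag). The reference includes genes used by most cells, such as Tfrc, the transferrin receptor, at 119 CPM in C57BL/6 wild type and 110 CPM in C57BL/6 mutants, so these are relative values and not levels per red cell precursor. In bulk tissue fewer cells of a type and less RNA per cell cannot be told apart.

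Markers of other blood cells also differed between the groups. The 8 megakaryocyte and platelet markers summed to 28.5 to 36.4 CPM in C57BL/6 wild type and 13.4 to 17.6 in C57BL/6 mutants, where 7 of 8 fell (background 12.6%), and to 35.4 to 43.9 in BALB/c wild type and 45.6 to 64.6 in BALB/c mutants. The 8 neutrophil markers summed to 225 to 395, 116 to 253, 559 to 663 and 783 to 858 CPM in the same groups, and 4 of 8 fell in C57BL/6 mutants (background 12.6%). The neutrophil sums of C57BL/6 wild type and mutant libraries overlapped, and those of the wild type strains were apart, unlike the sums of the 8 genes. In BALB/c 0 of 8 of either list passed edgeR's test, with 5 megakaryocyte and 2 neutrophil markers at an unadjusted p under 0.05, all higher, as were 1151 of all 16190 genes. DESeq2 called 1 and 0 of them, and limma-voom 0 of both. The 8 macrophage markers went the other way in C57BL/6, from 375 to 472 CPM in wild type to 611 to 687 in mutants, 3 of 8 having risen (background 11.3%).

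Markers of the tissue itself and of neighbouring tissue also differed. The 8 osteoblast markers were abundant in all libraries, at 62020 CPM (C57BL/6 wild type replicate 1) to 142000 CPM, and 6 of 8 rose in C57BL/6 mutants (background 11.3%). The 8 markers of ciliated epithelium summed to 107 to 221 CPM in C57BL/6 wild type, 57.2 CPM in C57BL/6 mutant replicate 4 and 4.98 to 7.26 CPM in the other 8 libraries. The 10 skeletal muscle markers were highest in BALB/c mutant replicate 16, at 468 CPM, against 8.78 to 91.7 CPM in the other libraries. More than 1000 counts of Y-linked genes were found in 3 of 3 C57BL/6 wild type libraries and in 1 of 3 libraries of each other group, so sex was unevenly spread over the groups. Without C57BL/6 mutant replicate 4 the C57BL/6 genotype difference was -1.20 (Ank1) to -1.89 (Slc4a1) on the log2 scale. The part of these markers and of sex in the values of the 8 genes was otherwise not tested.

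**Figure D4:**
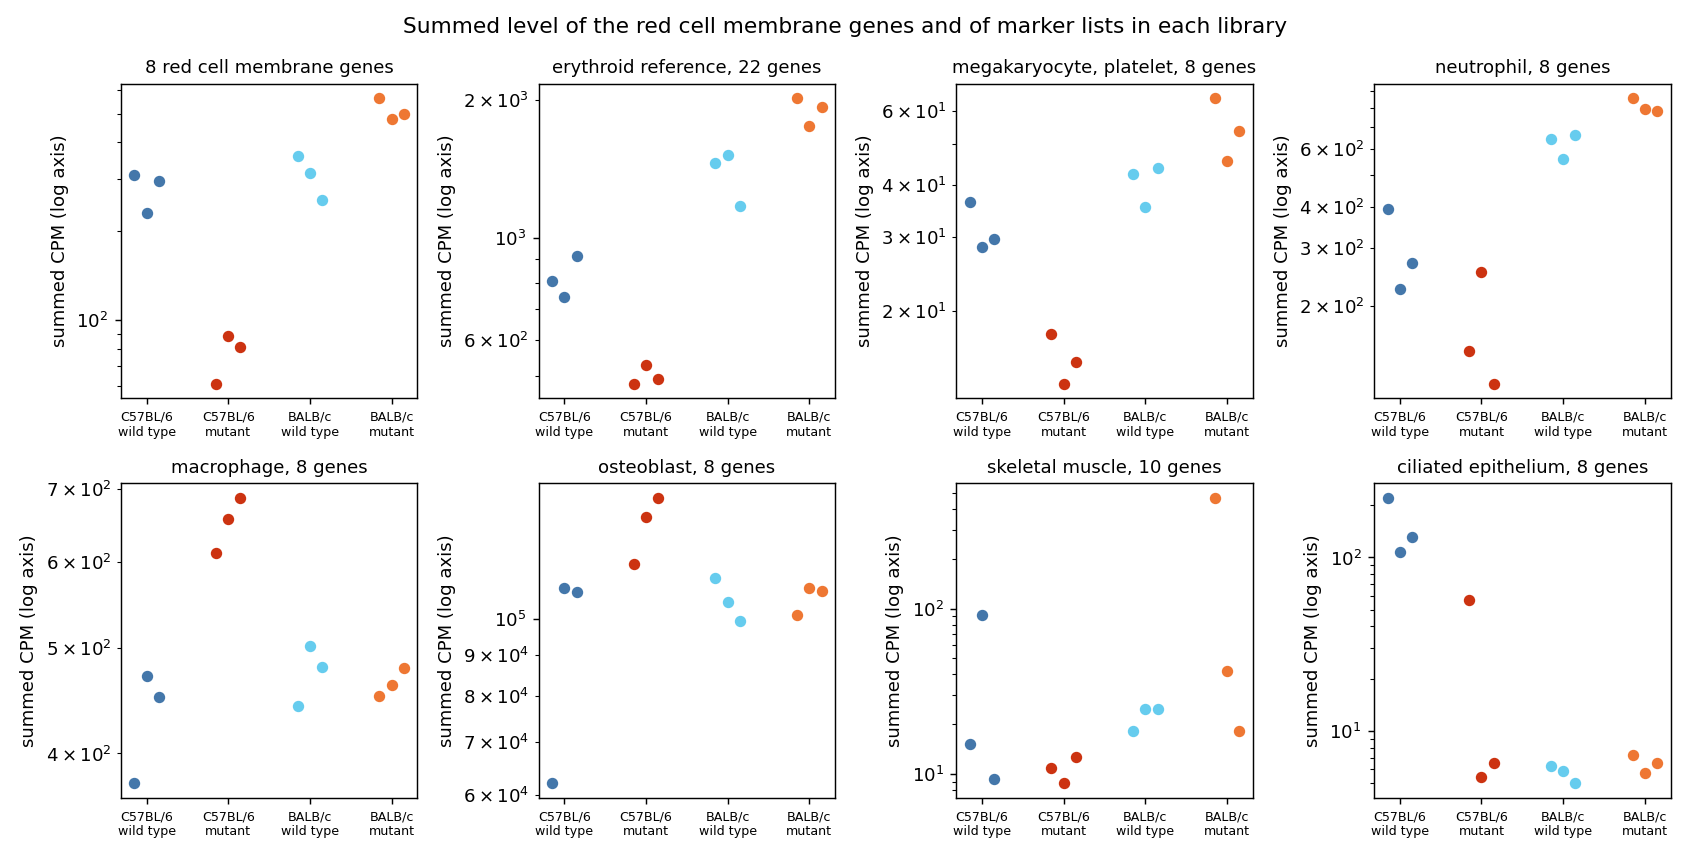
Summed TMM-scaled CPM of the 8 red cell membrane genes and of 7 marker lists, 1 point per library on log axes. The 8 genes, the erythroid reference and the megakaryocyte list are lowest in the 3 C57BL/6 mutants and highest in the 3 BALB/c mutants, whereas macrophage and osteoblast lists are highest in the C57BL/6 mutants.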

How the data were processed

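The authors deposited raw counts per gene, made per the submitters' processing notes with bcl2fastq, TopHat2 2.0.6 and HTSeq on build mm10. All counts were even, so both mates of a pair were counted. The deposited RPKM values were used only as a check: gene counts were 75.6% to 80.7% of the library total they imply in C57BL/6 and 86.4% to 88.0% in BALB/c. Log2 fold changes and q-values of the authors' deposited DESeq2 table were copied without change.

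From the counts, 16190 genes passed edgeR's filterByExpr (minimum count 10, minimum total 15). They were scaled by TMM and fitted with edgeR 4.0.16 (R 4.3.3; quasi-likelihood, 4 groups, 12 samples, no covariate), with Benjamini-Hochberg adjustment over all genes and a threshold of 0.05. Correlations used log2 CPM with a prior count of 2. Depth was 27181658 to 46521546 counts per library. The steps were tested on simulated data. The genes and lists were chosen with earlier results of these data known. All 8 genes are named. From each list the text names at most 3 genes per contrast, those with the largest change among those that passed, and the 5 genes most like the 8, except that some genes these rules select are not reported here. Alternatives were RLE factors, total counts, no filter and a stricter filter, only the groups compared, DESeq2 1.42.0, limma-voom (limma 3.58.1) and leaving out each library. Sequences are from RefSeq tables.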

Additional observations from a re-analysis of the deposited data

Results flagged for a closer look

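The genotype difference was negative in C57BL/6 and positive in BALB/c for all 8 genes, though in BALB/c only Sptb, Rhd and Ermap passed. The interaction term of edgeR's quasi-likelihood fit (BALB/c minus C57BL/6, log2) passed the threshold for each of the 8 genes. In the positive direction it did so for 5.46% of all genes. The interaction was 2.85 for Slc4a1, 2.38 for Sptb, 1.93 for Ank1, 2.70 for Rhd, 2.69 for Rhag, 2.60 for Ermap, 2.77 for Kel and 2.22 for Icam4. The genes were proposed with both genotype effects in view, so these values are no independent support.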

How the results depend on the processing

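No paired analysis was possible because the replicate numbers of the groups are not shared. The genes were proposed on the genotype effects, so how many of the 8 pass for them under other settings says nothing of stability. In BALB/c 3 of 8 passed, against 0 with total counts (6 at an unadjusted p under 0.05), 5 with only the groups compared, 5 with DESeq2 and 0 to 3 with 1 library left out. Between wild type strains 2 passed, against 0 with total counts (0 at an unadjusted p under 0.05), 4 with limma-voom and 0 to 2 with 1 library left out. Over all genes 7847 of 16190 passed in that comparison, in either direction. The all-gene count was 7130 with total counts, 7815 with limma-voom and 6567 to 7319 with 1 library left out. With total counts the wild type strain difference turned to -0.021 for Slc4a1, -0.020 for Ank1 and -0.059 for Icam4 (log2), where that scaling shifted the median of all genes by -0.12. It shifted it by -0.20 in C57BL/6 and 0.23 in the interaction. Leaving out 1 library gave -0.11 to 0.31 for Slc4a1, -0.12 to 0.082 for Sptb and -0.16 to 0.30 for Icam4, none of which passed in any of these fits.

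Counts over all genes moved as well. In C57BL/6 3867 passed, against 1458 with only the groups compared and 1724 to 4833 with 1 library left out. In BALB/c 22 passed, against 4 with total counts, 71 with only the groups compared, 44 with limma-voom, 323 with DESeq2 and 0 to 95 with 1 library left out (1360 to 1368 at an unadjusted p under 0.05 in the 2 fits with 0). The interaction passed for 1626, against 2707 with DESeq2 and 624 to 3129 with 1 library left out. The cause was not tested. Chosen after seeing the data, leaving out C57BL/6 mutant replicate 4 raised the blood group genes called in the interaction from 5 to 10, as it raised those over all genes to 3129, and leaving out BALB/c mutant replicate 16 lowered the erythroid genes called in BALB/c from 1 to 0.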
